A study of Mus musculus with 15 samples.

Results

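The genes described here are 8 macrophage markers, Csf1r, Mrc1, Itgam, Cd68, C1qa, C1qb, C1qc and Lyz2, read in cells prepared as mammary epithelium. They were taken as all probe sets whose only gene symbol in the platform annotation is one of these 8, which gave 12 of 20380 probe sets and 8 of 12393 genes. All mice were female C57BL/6, and the cells came from digested mammary glands. Arrays labelled pregnant, at day 21, comprise 3 from mice injected with the DNA methylation inhibitor 5-azacytidine (AzaC), 3 with the histone deacetylase inhibitor valproic acid (VPA) and 2 with PBS as the control. Arrays labelled virgin, at 9 weeks, comprise 3 with AzaC, 2 with VPA and 2 with PBS. Doses are not in the labels, and neither is the number of mice behind the replicates of a group. The p-values below therefore measure the spread between arrays, which may be technical. The question asked of the 8 genes is whether the mix of cells in the preparations differed between the 6 groups.

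Macrophages live throughout the mammary gland, along the ducts and alveoli and in the stroma around them, where they take part in duct growth and clear dead cells and milk when the gland regresses. They depend on signals through the receptor Csf1r, take up particles through receptors such as the mannose receptor Mrc1, and degrade them in lysosomes, where Cd68 resides. Tissue macrophages are also a main source of C1q, the complement protein that starts the classical pathway. In an epithelial preparation such transcripts can come from macrophages that stay with the epithelium through digestion. In bulk RNA, fewer cells of a type and less RNA per cell cannot be told apart.

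Levels are the deposited values, taken as log2. They ranged from 0 to 14.48, and the array medians lay between 7.22 and 7.47. Across genes, which are no replicates of each other, arrays of a group correlated at 0.948 to 0.979. RNA quality was read from control probe sets at the 3′ and the 5′ end of Gapdh and Actb, and the mean difference between the ends lay between -0.035 and 1.34 on the log2 scale. It was highest on virgin PBS replicate 2 (1.34), pregnant VPA replicate 3 (1.01) and pregnant AzaC replicate 1 (0.66). The 10 luminal epithelial markers measured were never listed at 0, and their average level lay between 11.01 and 12.00 on the 15 arrays. None of the 8 macrophage markers was listed at 0 on any array, and 7 of them had a mean above 6.43, the limit under which genes are called dim here. Itgam was below it, at 5.02. The 14 measured genes common to all leucocytes were also above 0 on every array, and 3 of them were dim by the same limit.

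None of the 8 genes passed the threshold in any of the 11 comparisons made between the groups (limma, adjusted p over 12393 genes). In arrays labelled pregnant, however, 7 of the 8 read higher on all 3 AzaC arrays and on all 3 VPA arrays than on both PBS arrays, as did 23.5% of all genes for AzaC and 25.7% for VPA. Among the virgin arrays, 0 of the 8 read higher on every AzaC or every VPA array than on both PBS arrays, where 11.5% of all genes did for AzaC and 20.8% for VPA. There, 2 of the 8, Itgam and C1qa, read lower on both VPA arrays than on both PBS arrays, as did 15% of all genes.

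Csf1r, the receptor of the growth factors Csf1 and Il34 and the defining receptor of the lineage, had a narrow range by one probe set and a wider one by another. Under the pregnant label its main probe set read 11.08, 11.16 and 11.38 with AzaC, 11.35, 11.21 and 11.11 with VPA, and 11.01 and 10.79 with PBS. Virgin arrays read 10.85, 11.13 and 11.23 with AzaC, 10.96 and 10.77 with VPA, and 11.38 and 10.79 with PBS. The drug arrays labelled pregnant all lay above their PBS arrays, but a virgin PBS array equalled the highest of them. The whole range over 15 arrays was 0.61 by this probe set, the narrowest among the probe sets that stand for the 8 genes, but it was wider by 1419873_s_at, which ran from 8.76 to 10.46.

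Mrc1, the mannose receptor of many resident tissue macrophages, spread more widely. Pregnant arrays read 7.37, 7.63 and 7.92 with AzaC, 8.49, 7.65 and 7.36 with VPA, and 6.91 and 6.54 with PBS. Those labelled virgin had 6.32, 7.04 and 7.48 with AzaC, 6.76 and 6.63 with VPA, and 7.17 and 6.53 with PBS. The pregnant and virgin VPA arrays did not overlap, and those with AzaC did (7.37 to 7.92 against 6.32 to 7.48).

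Itgam, the alpha chain of the integrin CD11b/CD18 on macrophages and neutrophils, was dim and followed none of the others. Its values under the pregnant label were 4.58, 5.26 and 4.86 with AzaC, 5.98, 5.01 and 4.34 with VPA, and 5.15 and 5.12 with PBS. Virgin arrays had 5.22, 4.69 and 4.79 with AzaC, 4.96 and 4.81 with VPA, and 5.34 and 5.11 with PBS. Its highest and its lowest value of all 15 arrays were both on pregnant VPA arrays. Values this low on the scale say little about its expression.

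Cd68, a glycoprotein of the lysosome and late endosome, had the largest change of the 8 genes for AzaC against PBS in arrays labelled pregnant. In arrays labelled pregnant it read 8.05, 8.24 and 8.71 with AzaC, 8.74, 8.29 and 7.62 with VPA, and 7.03 and 6.81 with PBS. In arrays labelled virgin it read 6.52, 8.26 and 8.22 with AzaC, 7.24 and 7.06 with VPA, and 7.92 and 6.29 with PBS. Each virgin group with AzaC or PBS therefore held both high and low arrays, more than a unit apart.

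The 3 chains of C1q are coded by neighbouring genes in the order C1qb, C1qc and C1qa, with 0 other genes listed between them in RefSeq. C1qa read 9.76, 9.28 and 9.80 with AzaC, 10.02, 10.20 and 10.45 with VPA, and 8.93 and 8.65 with PBS in arrays labelled pregnant. It read 7.49, 9.60 and 9.98 with AzaC, 9.07 and 8.90 with VPA, and 9.16 and 9.21 with PBS in arrays labelled virgin. Its 7.49 on virgin AzaC replicate 1 was the lowest of the 15 values by more than a unit, and its total range of 2.96 was the widest of the 8 genes.

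C1qc read 10.01, 10.20 and 10.22 with AzaC, 10.60, 10.39 and 10.09 with VPA, and 9.46 and 9.03 with PBS in arrays labelled pregnant. It read 8.39, 10.28 and 10.22 with AzaC, 9.70 and 9.29 with VPA, and 9.80 and 8.89 with PBS in arrays labelled virgin. The lowest value was again that of virgin AzaC replicate 1, but in pregnant VPA and in virgin PBS the replicates of C1qc and C1qa ran in opposite order.

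C1qb, read by its brightest probe set, had 10.37, 10.63 and 10.47 with AzaC, 10.75, 10.71 and 10.35 with VPA, and 10.19 and 10.06 with PBS in arrays labelled pregnant. It had 10.15, 10.58 and 10.37 with AzaC, 10.33 and 10.10 with VPA, and 10.97 and 9.91 with PBS in arrays labelled virgin. Both the highest and the lowest of the 15 values were on virgin PBS arrays, so the PBS pair enclosed every other group.

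Lyz2, the lysozyme of macrophages and neutrophils, read 9.59, 10.02 and 9.85 with AzaC, 10.50, 10.38 and 10.34 with VPA, and 9.49 and 9.13 with PBS in arrays labelled pregnant. It read 8.63, 10.48 and 10.18 with AzaC, 9.87 and 9.58 with VPA, and 9.87 and 9.32 with PBS in arrays labelled virgin. The 3 pregnant VPA arrays lay close together and above the 3 AzaC arrays. The paralogue Lyz1 is close in sequence, and its probe sets 1436996_x_at and 1439426_x_at were also lowest on virgin AzaC replicate 1, at 8.15 and 7.17. A dimmer Lyz1 probe set, 1450822_at, read 4.10 there and was lowest on virgin PBS replicate 2, at 2.56. Signal from the 2 lysozyme genes may be shared between these probe sets.

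**Figure D1:**
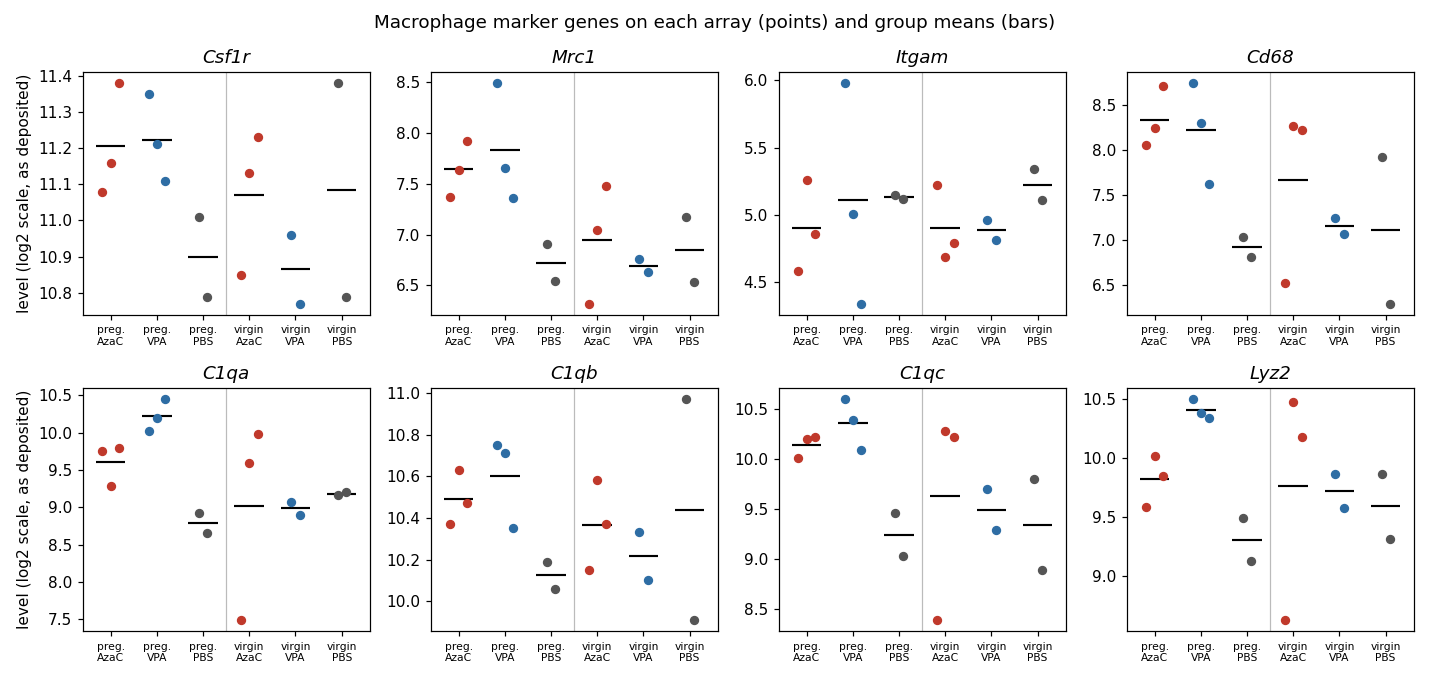
Level of each of the 8 macrophage marker genes (log2 scale, y axis, with its own range in each panel) on the 15 arrays, grouped by label and injection on the x axis; points are arrays and bars group means. In arrays labelled pregnant, the AzaC and VPA points lie above the PBS points in all panels but that of Itgam, and replicate 1 is the lowest of the virgin AzaC points in those 7 panels, at 7.49 for C1qa.

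The promoters of C1qb and C1qc, 2 of the neighbouring chains, and of Cd68, which had the largest change with AzaC, are shown as a description of their sequence. Whether the members share a regulator was not tested. Sequences are from RefSeq (GRCm38.p6), from 250 bases before to 50 after the start, for chr4:136886151-136886450, chr4:136892865-136893164 and chr11:69666121-69666420, all on the minus strand. Capitals mark the PU box, the core site of the myeloid transcription factor PU.1, which is spelled GAGGAA or, on the other strand, TTCCTC.
C1qb: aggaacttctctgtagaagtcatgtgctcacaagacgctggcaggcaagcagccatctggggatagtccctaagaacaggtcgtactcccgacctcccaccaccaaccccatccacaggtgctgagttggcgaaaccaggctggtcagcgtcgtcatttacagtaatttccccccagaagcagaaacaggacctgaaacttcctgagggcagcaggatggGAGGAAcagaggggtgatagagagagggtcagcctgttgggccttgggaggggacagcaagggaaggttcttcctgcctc
C1qc: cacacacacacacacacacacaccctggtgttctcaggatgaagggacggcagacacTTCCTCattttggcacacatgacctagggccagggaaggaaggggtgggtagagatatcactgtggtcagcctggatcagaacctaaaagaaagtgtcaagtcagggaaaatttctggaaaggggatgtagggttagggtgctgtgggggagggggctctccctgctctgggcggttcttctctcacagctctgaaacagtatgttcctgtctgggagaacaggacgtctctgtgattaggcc
Cd68: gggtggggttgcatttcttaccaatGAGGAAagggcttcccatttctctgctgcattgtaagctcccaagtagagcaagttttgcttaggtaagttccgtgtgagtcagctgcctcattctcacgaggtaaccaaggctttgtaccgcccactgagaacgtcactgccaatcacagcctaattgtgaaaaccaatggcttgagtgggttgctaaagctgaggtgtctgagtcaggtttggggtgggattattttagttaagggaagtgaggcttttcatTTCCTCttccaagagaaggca
Of the 8 genes, 6 had a promoter in the table, and 5 of those held the letters on either strand, against 28.3% of all 32851 promoters of the same length. There was 1 match in C1qb, 1 in C1qc, 2 in Cd68, 3 each in Mrc1 and Itgam and 0 in Lyz2. A match of letters is a description and not a bound site.

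In AzaC against PBS among arrays labelled pregnant, the 8 genes had a median change of 0.67 on the log2 scale, beside 0.04 over all genes. Of the 8, 0 passed the threshold, where 7.57% of all genes passed, and 2 of the 8 had an unadjusted p under 0.05, as had 26.2% of all genes. Cd68 averaged 8.33 ± 0.34 (SD, n = 3) on the AzaC arrays and 6.92 ± 0.16 (SD, n = 2) on the PBS arrays, a change of 1.41 ± 0.57 (SE, adjusted p = 0.145). Mrc1 averaged 7.64 ± 0.28 (SD, n = 3) on the AzaC arrays and 6.73 ± 0.26 (SD, n = 2) on the PBS arrays, a change of 0.92 ± 0.38 (SE, adjusted p = 0.158). The other members changed by between -0.24 (Itgam) and 0.90 (C1qc), with adjusted p from 0.273 to 0.748. All members but Itgam were higher on every AzaC array than on both PBS arrays, 7 of 8, and so were 23.5% of all genes. The 8 genes were read on the same 5 arrays, so the 7 are not separate observations of the groups. Without virgin AzaC replicate 1, an array outside this comparison, C1qa passed with the same change of 0.82 and a smaller SE of 0.21 (adjusted p = 0.0357), and 10.6% of all genes passed.

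In VPA against PBS among arrays labelled pregnant, which uses the same PBS arrays, the median change of the 8 was 1.10, beside 0.06 over all genes. Again 0 of 8 passed, where 5.98% of all genes did, and 5 of 8 had an unadjusted p under 0.05, as had 24.9% of all genes. Mrc1 averaged 7.83 ± 0.59 (SD, n = 3) with VPA and 6.73 ± 0.26 (SD, n = 2) with PBS, a change of 1.11 ± 0.38 (SE, adjusted p = 0.109). C1qa averaged 10.22 ± 0.22 (SD, n = 3) with VPA and 8.79 ± 0.20 (SD, n = 2) with PBS, a change of 1.43 ± 0.55 (SE, adjusted p = 0.138). The changes of Cd68, C1qc and Lyz2 were 1.30, 1.12 and 1.10, those of C1qb and Csf1r 0.48 and 0.32, and that of Itgam -0.02, with adjusted p from 0.146 to 0.983. The same 7 genes were higher on every VPA array than on both PBS arrays, as were 25.7% of all genes.

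Whether members passed with VPA depended on 1 array outside the comparison and on how the fit was made. Without virgin AzaC replicate 1, C1qa (change 1.43 ± 0.21 SE, adjusted p = 0.00418), Lyz2 (1.10 ± 0.22 SE, adjusted p = 0.0131) and C1qc (1.12 ± 0.27 SE, adjusted p = 0.0304) passed, and so did 1240 of the 12393 genes. The compared arrays and the changes are the same with and without that array, which enters through the shared estimate of the spread. With the 5 compared arrays alone, C1qa passed (1.43 ± 0.20 SE, adjusted p = 0.0438), as did 2.94% of all genes. With the RNA quality difference as a covariate, Mrc1 passed (1.11 ± 0.31 SE, adjusted p = 0.046), as did 10.5% of all genes.

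**Figure D2:**
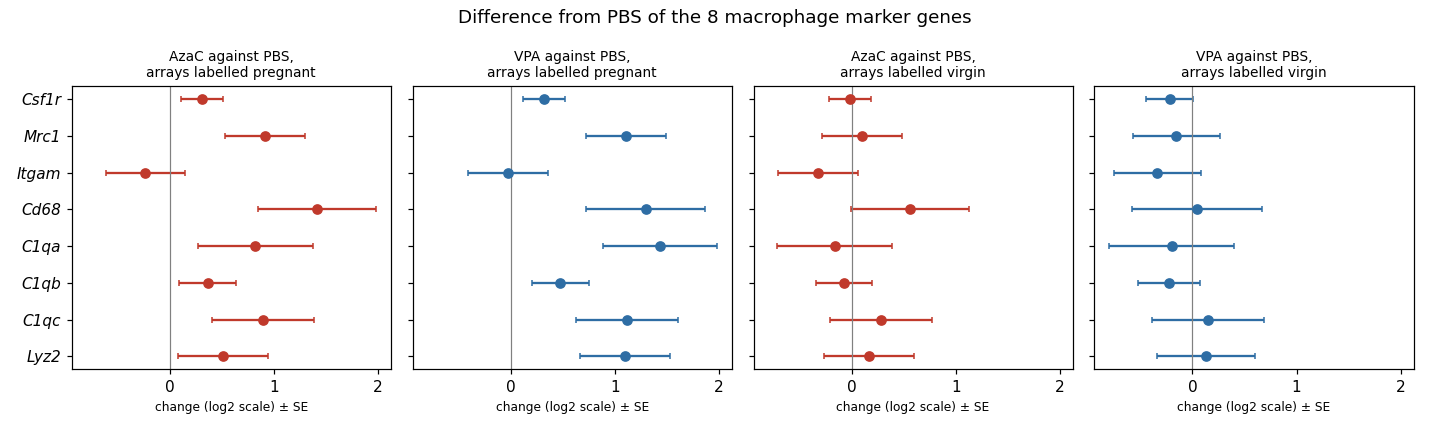
Change from PBS (log2 scale, x axis) of the 8 genes, with bars of 1 SE, for AzaC and VPA in arrays labelled pregnant and in arrays labelled virgin. All genes but Itgam lie right of 0 in both pregnant panels, up to 1.43 for C1qa with VPA, while in the virgin panels they lie between -0.34 and 0.56.

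In arrays labelled virgin, AzaC against PBS gave a median change of 0.04 over the 8 genes and 0.06 over all genes. No member passed, nor did any of the 12393 genes (0% of genes), and 0 of 8 had an unadjusted p under 0.05, beside 6.85% of all genes. Cd68 had the smallest p, at 7.67 ± 0.99 (SD, n = 3) on the AzaC arrays and 7.11 ± 1.15 (SD, n = 2) on the PBS arrays, a change of 0.56 ± 0.57 (SE, adjusted p = 0.839). Without virgin PBS replicate 2 that change was -0.25, and the median of the 8 lay between -0.24 and 0.51 over the arrays left out in turn. Itgam changed by -0.33 ± 0.38 (SE, adjusted p = 0.864).

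VPA against PBS in arrays labelled virgin gave a median of -0.18 over the 8 genes and 0.05 over all genes, and the median of the 8 was 0.23 without virgin PBS replicate 1 and -0.46 without replicate 2. Not one of the 8 passed, where 0.00807% of all genes did, and 0 of 8 had an unadjusted p under 0.05, as had 6.87% of all genes. Csf1r averaged 10.87 ± 0.13 (SD, n = 2) with VPA and 11.09 ± 0.42 (SD, n = 2) with PBS, a change of -0.22 ± 0.22 (SE, adjusted p = 0.858), and its sign turned without virgin PBS replicate 1 (0.075). Itgam changed by -0.34 ± 0.42 (SE, adjusted p = 0.897).

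The difference between the drug effects of the 2 labels was itself tested, and its size depended on the virgin PBS arrays. For AzaC the effect in arrays labelled pregnant minus that in arrays labelled virgin had a median of 0.53 over the 8 genes, which was 0.05 without virgin PBS replicate 1, 0.96 without virgin PBS replicate 2 and 0.23 without virgin AzaC replicate 1. Mrc1 (0.82 ± 0.54 SE, adjusted p = 0.547) and C1qa (0.98 ± 0.78 SE, adjusted p = 0.624) had the smallest p. None of the 8 passed, nor did any gene (0% of genes), and 0 of 8 had an unadjusted p under 0.05, beside 12.8% of all genes. For VPA the median was 0.97, which was 0.47 without virgin PBS replicate 1 and 1.33 without replicate 2. Mrc1 (1.26 ± 0.57 SE, adjusted p = 0.26) and C1qa (1.63 ± 0.81 SE, adjusted p = 0.309) had the smallest p. None of the 8 passed, where 0.315% of all genes did, and 1 of 8 had an unadjusted p under 0.05, as had 18.9% of all genes. Without virgin AzaC replicate 1 the VPA value of C1qa passed (adjusted p = 0.0332), as did 2.72% of all genes.

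Comparing the labels within an injection, the 8 genes had a median change of 0.77 between pregnant and virgin arrays with VPA, beside 0.06 over all genes, and 7 of 8, all but Itgam, were higher on every pregnant array than on both virgin arrays, as were 26.2% of all genes. Mrc1 averaged 7.83 ± 0.59 (SD, n = 3) in arrays labelled pregnant and 6.70 ± 0.09 (SD, n = 2) in those labelled virgin, a change of 1.14 ± 0.38 (SE, adjusted p = 0.0938). C1qa changed by 1.24 ± 0.55 (SE, adjusted p = 0.188). No member passed, where 6.66% of all genes did, and 2 of 8 had an unadjusted p under 0.05, as had 25.1% of all genes. Without virgin AzaC replicate 1, C1qa passed (adjusted p = 0.00976), as did 10.2% of all genes. It also passed with the 5 VPA arrays alone (adjusted p = 0.0483), as did 3.4% of all genes. Mrc1 passed with the RNA quality covariate (1.23 ± 0.31 SE, adjusted p = 0.0331), as did 11.5% of all genes.

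With AzaC the median change between arrays labelled pregnant and virgin was 0.33, but 0.02 without virgin AzaC replicate 1, 0.58 without replicate 2 and 0.54 without replicate 3, and none of the 8 passed, where 1.23% of all genes did, and 0 of 8 had an unadjusted p under 0.05, as had 18.4% of all genes. Here 0 of 8 were higher on every pregnant array, where 8.81% of all genes were. Mrc1 changed by 0.69 ± 0.34 (SE, adjusted p = 0.306) and Cd68 by 0.67 ± 0.51 (SE, adjusted p = 0.52), and the change of Cd68 was 0.09 without virgin AzaC replicate 1. With PBS the 8 genes had lower means in arrays labelled pregnant, by -0.40 (C1qa) to -0.09 (Itgam) with a median of -0.18, and C1qa was lower on both pregnant arrays than on both virgin arrays, as were 13.4% of all genes. None of the 8 passed, where 0.00807% of all genes did. Of the 8, 0 had an unadjusted p under 0.05, as had 4.2% of all genes. C1qb changed by -0.32 ± 0.30 (SE, adjusted p = 1), and the sign of the median turned over the arrays left out in turn (-0.52 to 0.15, the highest without virgin PBS replicate 1). Csf1r changed by -0.18 ± 0.22 (SE, adjusted p = 1).

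AzaC and VPA were also set against each other. In arrays labelled pregnant the 8 genes had a median change of -0.20 (-0.06 without AzaC replicate 1, 0.003 without VPA replicate 1 and -0.39 without VPA replicate 3), none of the 8 passed, nor did any gene (0% of genes), and 0 of 8 had an unadjusted p under 0.05, beside 3.78% of all genes. Lyz2 averaged 9.82 ± 0.22 (SD, n = 3) on the AzaC arrays and 10.41 ± 0.08 (SD, n = 3) on the VPA arrays, a change of -0.59 ± 0.39 (SE, adjusted p = 1). C1qa changed by -0.61 ± 0.49 (SE, adjusted p = 1), and both genes, 2 of 8, were lower on every AzaC array than on every VPA array, as were 5.54% of all genes. For arrays labelled virgin the median was 0.14 (0.58 without AzaC replicate 1 and -0.01 without VPA replicate 2), none of the 8 passed, nor did any gene (0% of genes), and 0 of 8 had an unadjusted p under 0.05, beside 6.56% of all genes. Csf1r changed by 0.21 ± 0.20 (SE, adjusted p = 0.862) and Cd68 by 0.52 ± 0.57 (SE, adjusted p = 0.88).

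Ordering the 6 groups by their means, pregnant VPA stood first for 6 of the 8 genes, pregnant AzaC for Cd68 and virgin PBS for Itgam. Pregnant PBS stood last for 5 genes and virgin VPA for 3. Of the 40 pairs of neighbours in these orders, 37 had overlapping arrays and 3 did not. The 3 pairs were pregnant VPA over pregnant AzaC for C1qa and Lyz2, and pregnant AzaC over virgin PBS for C1qa. Of all genes, 5.54% were likewise higher on every pregnant VPA than pregnant AzaC array. For the last pair, and for neighbours in such orders as a whole, the share of all genes was not counted, so these counts only describe the members.

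Single arrays stood apart across the members. Pregnant VPA replicate 1 was among the 3 highest arrays for all 8 genes and the highest for 5. Virgin AzaC replicate 1 was the lowest array for 4 genes (Mrc1, C1qa, C1qc and Lyz2), and its average over the 8 was 7.95, against 9.01 and 9.06 on the other virgin AzaC arrays. The virgin PBS arrays were apart as well, with averages of 8.95 and 8.26. The averages in the other groups were 8.85 to 9.15 in pregnant AzaC, 8.96 to 9.55 in pregnant VPA, 8.27 to 8.52 in pregnant PBS and 8.39 to 8.61 in virgin VPA arrays.

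Csf1r and C1qb are read by 3 probe sets each, which did not always move together. For Csf1r in arrays labelled pregnant, the change with AzaC was 0.31, 0.65 and 0.29 for 1419872_at, 1419873_s_at and 1423593_a_at, and that with VPA was 0.32, 0.56 and 0.29. Only the last of the 3 had overlapping arrays in both comparisons. For C1qb, the change with VPA was 0.48 for 1417063_at, 1.17 for 1434366_x_at and 0.84 for 1437726_x_at, the last with the smallest adjusted p of these (0.0767, over all 20380 probe sets). On the 2 virgin PBS arrays 1 of the C1qb probe sets ran in the opposite order to the others. Replicates 1 and 2 read 10.97 and 9.91 by 1417063_at, but 8.86 and 9.40 by 1434366_x_at, and by 1437726_x_at replicate 1 was again the higher, at 8.33. When every probe set was tested on its own, none of the 12 passed in any comparison.

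**Figure D3:**
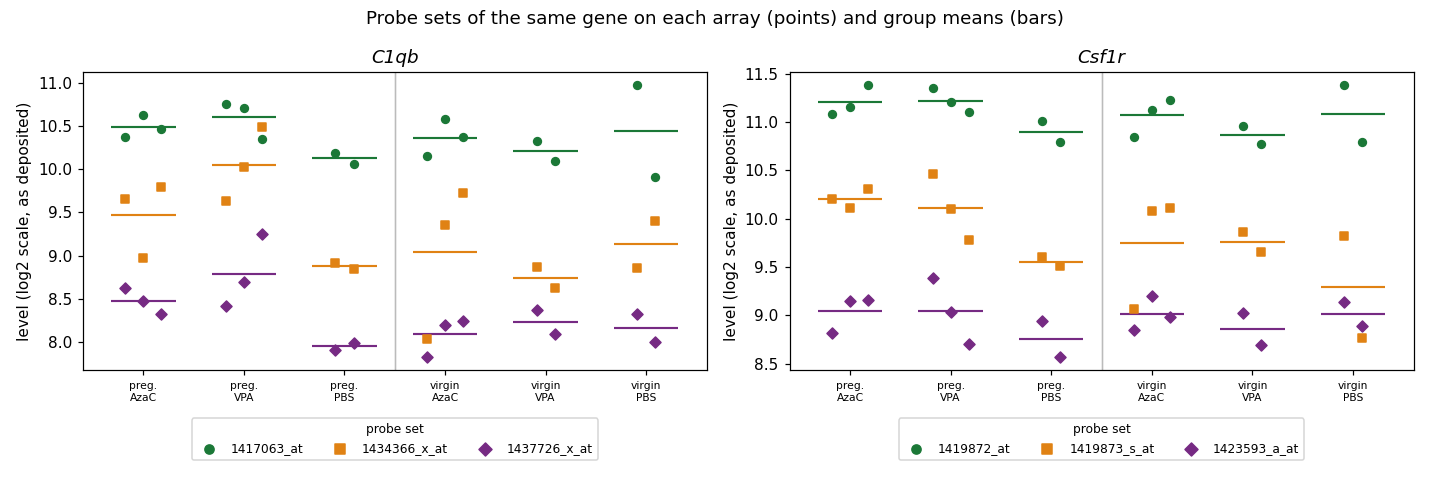
Level (log2 scale, y axis) of the 3 probe sets of C1qb and of Csf1r on each array, grouped by label and injection on the x axis; points are arrays and bars group means, with a colour and symbol for each probe set. The probe sets of a gene rank the arrays differently, as in virgin PBS, where C1qb reads 10.97 and 9.91 by 1417063_at and 8.86 and 9.40 by 1434366_x_at.

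The relation of the members to RNA quality was tested in a fit added after the data were seen. With the group means and the 3′ minus 5′ difference in the model, 1 of the 12 member probe sets passed for that difference, as did 16.6% of all probe sets. It was C1qb 1417063_at, which was lower by 0.61 ± 0.14 (SE) for each unit of the difference (coefficient -0.61, adjusted p = 0.0145). The coefficient was -1.09 ± 0.37 (SE, adjusted p = 0.0724) for Cd68, -0.69 for Mrc1 (adjusted p = 0.0993) and -0.71 for Itgam (adjusted p = 0.0832). For Csf1r it was -0.36, -0.63 and -0.43 by 1419872_at, 1419873_s_at and 1423593_a_at (adjusted p from 0.0683 to 0.111). It was -0.63 for C1qc (adjusted p = 0.302) and -0.41 for Lyz2 (adjusted p = 0.49). Positive coefficients were those of C1qa (0.17), C1qb 1434366_x_at (0.54 ± 0.36 SE, adjusted p = 0.34) and C1qb 1437726_x_at (0.18). The mean difference was 0.29 with AzaC, 0.41 with VPA and 0.40 with PBS in arrays labelled pregnant, and 0.25 with AzaC, 0.28 with VPA and 0.70 with PBS in arrays labelled virgin. Its part in the differences between virgin PBS and the other groups was not tested apart from the covariate fit.

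**Figure D4:**
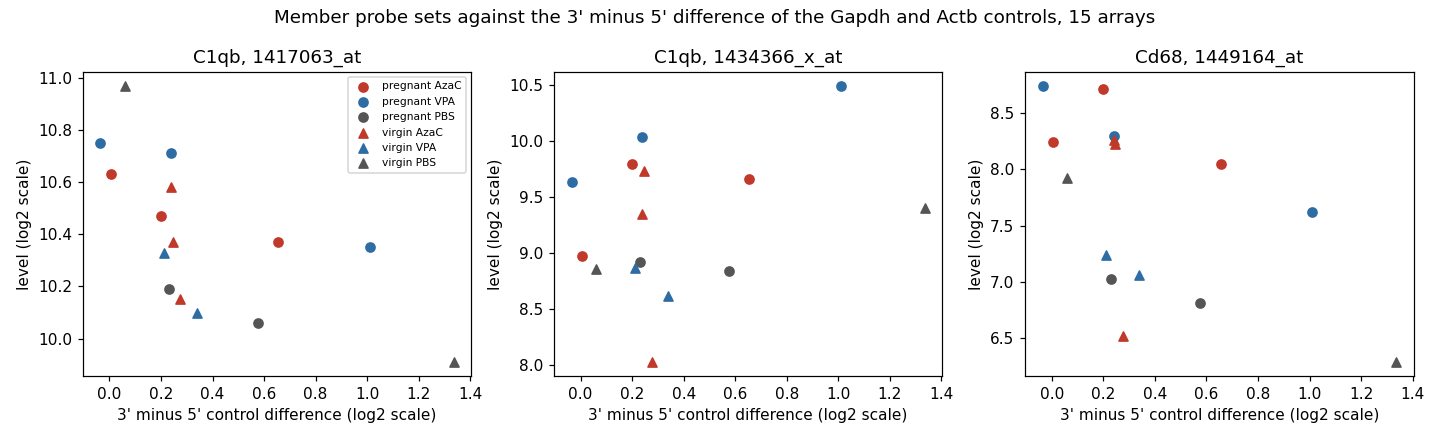
Level (log2 scale, y axis) of 2 probe sets of C1qb and the probe set of Cd68 against the mean 3′ minus 5′ difference of the Gapdh and Actb controls (log2 scale, x axis) on the 15 arrays; colours are injections, circles arrays labelled pregnant and triangles arrays labelled virgin. Virgin PBS replicate 2, at the far right (1.34), is the lowest array for C1qb 1417063_at and for Cd68 but not for C1qb 1434366_x_at.

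Other macrophage genes, listed by role, were higher in part of the pregnant drug arrays. Among 8 growth factor and lineage genes, 2 rose and 0 fell with AzaC in arrays labelled pregnant, where 7.57% of all genes passed with AzaC and 5.98% with VPA. Csf2rb, the shared beta chain of the GM-CSF, IL-3 and IL-5 receptors, rose by 2.27 ± 0.57 (SE, adjusted p = 0.0372), and Csf2ra, the GM-CSF receptor alpha chain, rose by 1.22 ± 0.33 (SE, adjusted p = 0.0446). Csf2rb averaged 6.38 on the AzaC arrays and 4.11 on the PBS arrays, both under the dim limit of 6.43. With VPA, 0 of these 8 passed, and their median changes were 0.30 with AzaC and 0.48 with VPA. Among 17 lysosomal and secreted genes, Lgmn, a lysosomal protease, rose by 1.77 ± 0.47 (SE, adjusted p = 0.0431) with AzaC and by 2.12 ± 0.47 (SE, adjusted p = 0.029) with VPA, and 0 fell. The median of these 17 was 0.56 with AzaC and 0.84 with VPA. Among 20 receptors and phagocytosis genes, 0 passed with AzaC (median 0.46), and 1 rose with VPA (median 0.52), the monocyte chemokine receptor Ccr2 (1.36 ± 0.31 SE, adjusted p = 0.0321). Ccr2 averaged 5.74 on the PBS arrays, under the dim limit, and 7.10 on the VPA arrays. Of 15 genes of activation states 0 passed with either drug, with medians of 0.14 with AzaC and 0.10 with VPA.

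Between the labels, 4 of the 20 receptor and phagocytosis genes rose and 0 fell in pregnant against virgin VPA arrays. Cd163, the haemoglobin scavenger receptor of resident macrophages, averaged 7.01 ± 0.23 (SD, n = 3) in arrays labelled pregnant and 4.84 ± 0.26 (SD, n = 2) in those labelled virgin, and rose by 2.17 ± 0.47 (SE, adjusted p = 0.0273). Cd84, a leucocyte receptor of the SLAM family, rose by 1.57 ± 0.37 (SE, adjusted p = 0.0336), and Ccr2 by 1.18 ± 0.31 (SE, adjusted p = 0.0463). Cd84 averaged 6.12 in arrays labelled pregnant and 4.55 in those labelled virgin, both under the dim limit of 6.43. From the other macrophage lists, Csf2ra (1.23, adjusted p = 0.0465), Ms4a6d (1.16, adjusted p = 0.0414) and the lectin Mgl2 (0.94, adjusted p = 0.0265) also rose, and 0 fell. On the virgin VPA arrays, Cd163 (4.84), Ccr2 (5.915) and Ms4a6d (5.55) also averaged under the dim limit. Single genes of other macrophage lists thus passed in comparisons where the 8 markers did not. Of all genes, 7.57% passed for AzaC and 5.98% for VPA against PBS in arrays labelled pregnant, and 6.66% between the labels with VPA. Whether these lists differed from the 8 markers or from all genes was not tested.

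Of the 10 measured partners and receptors of C1, 0 passed in either pregnant drug comparison, with medians of 0.52 with AzaC and 0.54 with VPA, and 6 of the 10 were higher on every drug array with each drug, as were 23.5% of all genes with AzaC and 25.7% with VPA. C1ra, a protease of the C1 complex, changed by 1.03 (adjusted p = 0.33) with AzaC and 1.35 (adjusted p = 0.209) with VPA. Serping1, the C1 inhibitor, changed by 1.26 (adjusted p = 0.145) with AzaC and 1.46 (adjusted p = 0.109) with VPA.

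The 10 genes whose pattern over the 15 arrays was most like the mean of the 8 members (each set to mean 0 and SD 1) had Pearson correlations of 0.934 to 0.960, among 8262 genes searched with a median of 0.127. They were Fcgrt, the neonatal Fc receptor, Man1a, a Golgi mannosidase, C1ra, Ifitm3, an interferon-inducible membrane protein, Ctsf, a cathepsin, Gsn, the actin-severing gelsolin, Serping1, Prelp, a matrix proteoglycan, Scara5, a ferritin receptor, and Antxr2, an anthrax toxin receptor that binds matrix. After group means were removed, the correlations lay between 0.899 and 0.975. All points share the arrays, their scaling and their RNA quality, and the genes were picked for likeness. None of the 10 passed in either pregnant drug comparison (adjusted p from 0.0787 to 0.365). Among the members, the correlation with the mean they belong to was highest for C1qc (0.948) and Cd68 (0.943) and lowest for Itgam (0.221).

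Markers of stromal and luminal cells were also higher in part of the pregnant drug arrays, where 7.57% of all genes passed with AzaC and 5.98% with VPA, and 52.9% had a positive change with AzaC and 54.3% with VPA. On the pregnant arrays, the average level of 11 fibroblast genes was 9.20 to 9.94 with AzaC, 9.36 to 10.18 with VPA and 8.78 to 9.01 with PBS. All 11 had a positive change with each drug, with medians of 0.49 with AzaC and 0.83 with VPA, and Dcn, the matrix proteoglycan decorin, rose with VPA (1.37 ± 0.36 SE, adjusted p = 0.0499). The average of 13 endothelial genes was 7.93 to 8.69 with AzaC, 7.89 to 8.59 with VPA and 7.08 to 7.68 with PBS. All 13 had a positive change with each drug (medians 0.85 and 0.83), and the tight junction gene Cldn5 rose by 1.80 with AzaC (adjusted p = 0.0258) and 1.98 with VPA (adjusted p = 0.0237). The average of 10 luminal epithelial genes was 11.63 to 12.00 with AzaC, 11.75 to 12.00 with VPA and 11.14 to 11.18 with PBS, with medians of 0.73 with AzaC and 0.65 with VPA, and E-cadherin, Cdh1, rose with VPA (1.60 ± 0.42 SE, adjusted p = 0.0463). The average of 8 adipocyte genes was 8.25 to 9.12 with AzaC, 8.74 to 8.97 with VPA and 8.16 to 8.29 with PBS, with medians of 0.50 and 0.56 and 0 genes passing, and its AzaC arrays overlapped those of PBS. Basal epithelial genes had a median of -0.08 with AzaC, with 4 of 10 positive. The part of these cell types in the differences of the macrophage genes was not tested.

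For lists of other leucocytes, of genes common to all leucocytes and of MHC class II presentation, the medians were mostly closer to 0. Macrophages are leucocytes, so the list common to all leucocytes does not leave them out. The MHC class II list names no single cell type. Dim by the limit used here were 8 of 12 T and NK cell, 8 of 12 neutrophil and 6 of 8 mast cell genes. So were 5 of 9 B and plasma cell, 3 of 14 leucocyte and 3 of 8 MHC class II genes. Of the macrophage markers, 1 of 8 was dim. Medians of mostly dim lists say little about those cells. The average of the 14 leucocyte genes in arrays labelled pregnant was 7.88 to 7.99 with AzaC, 7.81 to 8.25 with VPA and 7.73 to 7.91 with PBS, with medians of 0.19 with AzaC and 0.27 with VPA and 0 genes passing. For 12 T and NK cell genes the medians were 0.03 with AzaC and 0.27 with VPA, for 9 B and plasma cell genes -0.04 and 0.01, and for 8 mast cell genes -0.36 and -0.15, with 0 genes passing in each. The T and NK cell average was 5.15 to 5.38 with AzaC, 5.70 to 5.75 with VPA and 5.31 to 5.51 with PBS. Cd3d, Pax5 and Hdc were listed at 0 on some array. Of 12 neutrophil genes, whose medians were 0.24 with AzaC and 0.18 with VPA, the gelatinase Mmp9 rose by 0.78 ± 0.20 (SE, adjusted p = 0.0393) with AzaC and by 1.07 ± 0.20 (SE, adjusted p = 0.019) with VPA, and Camp was listed at 0 on some array. Mmp9 averaged 5.10 with AzaC, 5.39 with VPA and 4.325 with PBS, all under the dim limit of 6.43, where values say little about expression. The 8 measured genes of MHC class II presentation had medians of 0.23 and 0.57, with 0 passing, and for the 10 basal epithelial genes the median with VPA was 0.17, with 0 passing for either drug.

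Between pregnant and virgin VPA arrays, the fibroblast average was 9.36 to 10.18 in arrays labelled pregnant and 8.34 to 8.89 in those labelled virgin, with a median change of 1.16, and the collagen genes Col1a2 and Col3a1 rose by 1.51 each (adjusted p = 0.0403 for both). Of the 10 basal epithelial genes, the actin-binding Tagln rose by 0.97 (adjusted p = 0.0478). The leucocyte genes had a median of -0.03 there, and the endothelial genes 0.24. In VPA against PBS among arrays labelled virgin, 0 of 11 fibroblast genes (median -0.575) and 0 of 8 adipocyte genes (median -0.675) had a positive change. With AzaC against PBS there, 1 of 11 (median -0.252) and 1 of 8 (median -0.436) had one. Of all genes, 55.1% had a positive change with VPA and 57.6% with AzaC. On virgin AzaC replicate 1 the macrophage average was lowest. The averages of leucocyte, luminal epithelial, MHC class II and lysosomal macrophage genes were also the lowest of the 15 arrays there. Those of fibroblast and endothelial genes were not. Nor were those of the other macrophage lists. Receptor and phagocytosis genes averaged 6.60 there and 6.504 on pregnant PBS replicate 2. Growth factor and lineage genes averaged 6.936 there and 6.625 on virgin PBS replicate 2, and activation genes 5.674 and 5.655. Genes of these 17 lists passed only for each drug against PBS in arrays labelled pregnant and for pregnant against virgin VPA arrays. In the other 8 comparisons 0 passed.

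**Figure D5:**
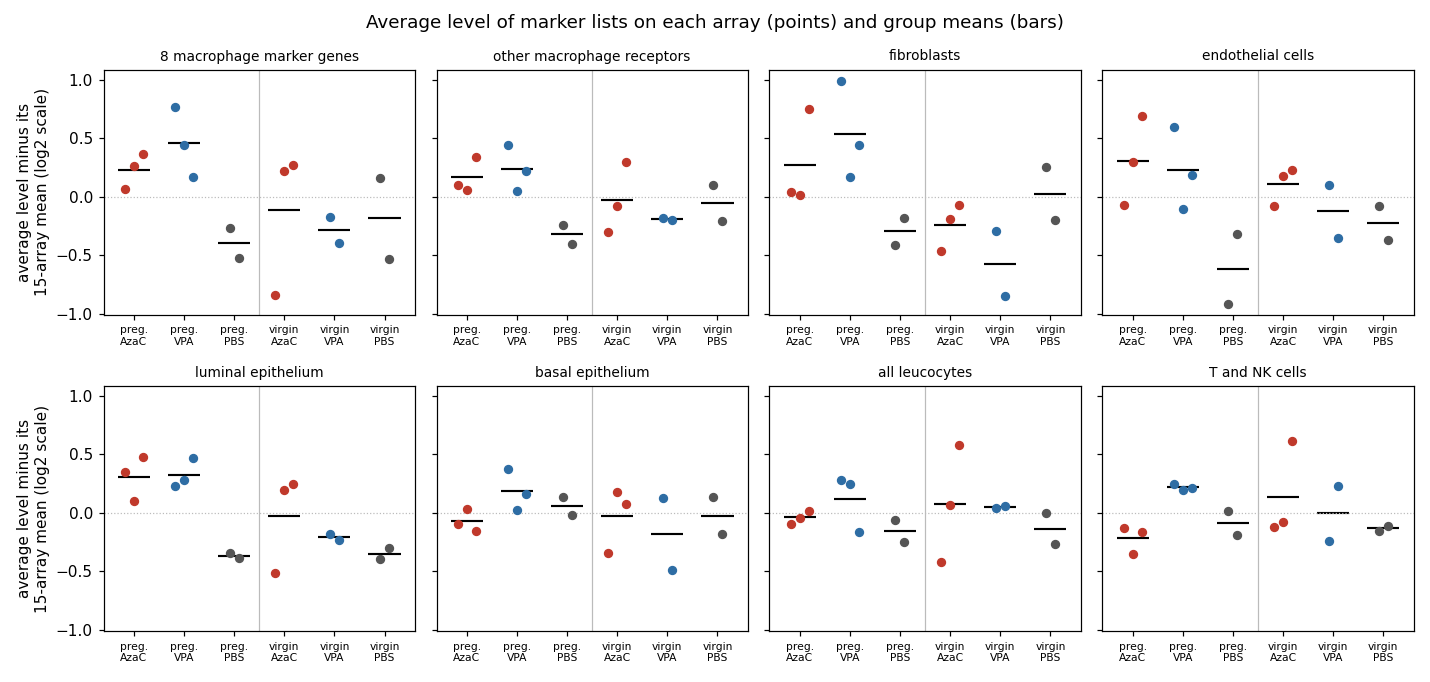
Average level of 8 marker lists on each array minus the list's mean over 15 arrays (log2 scale, y axis), grouped by label and injection on the x axis; points are arrays and bars group means. In arrays labelled pregnant the drug points of the macrophage, other macrophage receptor, fibroblast, endothelial and luminal lists lie above both PBS points. The leucocyte points of both drugs overlap those of PBS.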

How the data were processed

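Labelled cRNA of mammary epithelial cells was hybridised to 15 Affymetrix single-colour arrays, per the labels' protocols. The deposited values, processed by the authors, were taken as log2 because raised as exponents of 2 they cover the range common for such intensities. The base, the summary method and the normalization are not given in the sources used here. Probe sets were named from the platform annotation: 20380 carried a single symbol and were used, 64 controls were left out, and each gene was represented by its probe set with the highest mean.

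A mean for each of the 6 groups was fitted to all arrays with limma 3.58.1 in R 4.3.3, with 9 residual and 2.31 prior degrees of freedom. Two-sided moderated p-values were adjusted after Benjamini and Hochberg over 12393 genes, with a threshold of 0.05. The fit was tested on simulated data. The members, gene lists and comparisons were chosen with earlier results of these data known. All members are named. Changes are given for members that passed or, where none did, for the 2 with the smallest p, and listed genes are named if they passed, up to 3 a list with the largest change. Alternatives were quantile normalization, no dim genes, other uses of probe sets, eBayes with trend, only the compared arrays, a replicate block, a floor at 5, an RNA quality covariate and leaving out each array. The count of members higher on every array, the test of the covariate and the fit without 3 arrays were added after the data were seen. Replicate numbers were not used for pairing. Deviations of arrays with the same number correlated between -0.174 and 0.333 across genes, and those with other numbers between -0.333 and 0.322. In groups of 2 arrays the deviations mirror each other, so these ranges say little about pairing. The number of arrays limits the precision. Promoters and gene order were taken from RefSeq tables, and sites were not looked for elsewhere in the genome.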

Additional observations from a re-analysis of the deposited data

How the results depend on the processing

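No member passed in any of the 11 comparisons under quantile normalization, without dim genes, with the mean of all probe sets, with every probe set, with trend and robust settings, at a floor of 5 or without the 3 arrays of highest Gapdh difference. With the RNA quality covariate 1 member passed for VPA against PBS in arrays labelled pregnant and 1 for pregnant against virgin VPA arrays (Mrc1), and with only the compared arrays 1 passed in each of the same comparisons (C1qa). Leaving out each array in turn gave 0 to 1 members for AzaC against PBS in arrays labelled pregnant, 0 to 3 for VPA against PBS there, 0 to 1 for pregnant against virgin VPA arrays and 0 to 1 for the VPA effect between labels, each highest without virgin AzaC replicate 1. Where an array left out leaves 1 in a group, that array is assumed to vary like the others. With the replicate number as a block, 0 members passed in each comparison.

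The count of members higher on every pregnant than virgin AzaC array was 1 after quantile normalization, 1 without the 3 arrays of highest Gapdh difference and 0 to 1 without each array. In the 2 pregnant drug comparisons that count stayed at 7 throughout. Leaving out an array can only keep or raise such a count, so those fits could not have lowered it. Signs that turned belonged to changes that had not passed, and the cause was not tested. With arrays left out, Cd68 for virgin AzaC lay between -0.25 and 1.38 (-0.25 also without the 3 arrays), Csf1r for virgin VPA between -0.52 and 0.075, and, for pregnant against virgin PBS, C1qb between -0.85 and 0.22 and Csf1r between -0.48 and 0.11. By probe set 1419873_s_at Csf1r changed by 0.47 for virgin VPA, 0.27 between the labels with PBS and -0.01 between AzaC and VPA in arrays labelled virgin, and by the mean of its probe sets by 0.03 for virgin VPA.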
